A study of Mus musculus with 11 samples.

Results

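The Hox genes are 39 of the 24969 names in the bulk count table, chosen by symbol alone: every gene named Hox followed by a cluster letter (a to d) and a number. All 39 symbols were also present in each of the 3 single-cell matrices. The measurements came from mouse small intestine that had been stripped of its muscle layer and epithelium. In bulk, 4 sorted populations had 2 libraries each. Telocytes, the stromal cells lying under the epithelium, were the brightest GFP cells (GFPHi) of the PDGFRAH2BEGFP reporter mouse, in which a nuclear green fluorescent protein reports the Pdgfra gene. PDGFRAlo stromal cells were the dim cells (GFPLo) of the same reporter. Blood endothelium (CD31+ LYVE1-) and lymphatic endothelium (CD31+ LYVE1+) came from C57BL/6 mice. Strain, reporter and sort therefore changed together between stroma and endothelium, and their parts cannot be told apart. The single-cell data held 1 library of sorted PDGFRA-EGFP cells, a mixture of telocytes and PDGFRAlo cells, and 2 libraries of whole mesenchyme. The labels do not say whether libraries came from separate animals, so the p-values below measure only the spread between these libraries. They give no age.

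Hox genes encode homeodomain transcription factors that lie side by side in clusters. The order of the genes along each cluster matches the order in which they are used along the head-to-tail axis of the embryo. Genes at the same place in different clusters are paralogues and carry the same number. In the gut, the mesoderm uses Hox genes to set regional identity along its length, and adult stromal and vascular cells keep much of that pattern. On the GRCm38 assembly the HoxA cluster (11 members) spans chr6:52155590-52260880, HoxB (10 members) chr11:96194316-96368256, HoxC (9 members) chr15:102921103-103036852 and HoxD (9 members) chr2:74668310-74765142.

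The 250 bases upstream of the annotated start are shown for 3 HoxD genes that the populations used differently, and for Hoxb8, which held the most motif matches among the windows with sequence. RefSeq (GRCm38.p6) gave windows for 22 of the 39 members, 24 windows in all. Capitals mark any match, on either strand, to TGATNNAT (the letters of a joint Pbx and Hox site), TGACAG (Meis type), TTTATNG (Cdx type) or TAATTA (a homeodomain core).
Hoxd4, chr2:74721728-74721977, plus strand: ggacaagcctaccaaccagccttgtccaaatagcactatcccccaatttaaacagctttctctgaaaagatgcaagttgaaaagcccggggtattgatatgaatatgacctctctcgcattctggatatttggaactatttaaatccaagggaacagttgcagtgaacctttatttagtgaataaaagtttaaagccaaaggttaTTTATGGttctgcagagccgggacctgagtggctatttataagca
Hoxd8, chr2:74704365-74704614, plus strand: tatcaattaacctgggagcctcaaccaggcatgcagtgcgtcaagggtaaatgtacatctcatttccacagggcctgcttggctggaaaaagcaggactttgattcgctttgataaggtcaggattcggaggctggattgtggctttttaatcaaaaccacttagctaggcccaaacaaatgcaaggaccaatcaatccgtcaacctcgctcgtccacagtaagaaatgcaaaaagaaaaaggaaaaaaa
Hoxd10, chr2:74691641-74691890, plus strand: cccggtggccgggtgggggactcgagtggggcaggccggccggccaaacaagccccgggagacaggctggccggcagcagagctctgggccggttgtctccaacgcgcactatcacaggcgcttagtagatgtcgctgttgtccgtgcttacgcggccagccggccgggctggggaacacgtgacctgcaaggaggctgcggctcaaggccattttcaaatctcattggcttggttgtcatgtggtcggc
Hoxb8, chr11:96281655-96281904, plus strand: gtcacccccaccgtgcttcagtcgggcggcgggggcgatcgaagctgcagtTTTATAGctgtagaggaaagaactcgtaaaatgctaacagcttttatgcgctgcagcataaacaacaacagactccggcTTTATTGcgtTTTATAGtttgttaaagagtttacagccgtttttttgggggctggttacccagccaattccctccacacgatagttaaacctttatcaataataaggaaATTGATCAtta
The Hoxd8 window was 44.4% G and C and the Hoxd10 window 65.6%, although the genes are close neighbours. Neither held any of the 4 letter strings. TGATNNAT occurred in 4 of the 24 Hox windows (16.7%) and in 7.68% of 32851 promoter windows of this length. The shares were 8.33% and 15.9% for TGACAG, 8.33% and 9.81% for TTTATNG, and 8.33% and 4.84% for TAATTA. The matches shown do not overlap one another. A match describes letters and is not a bound site.

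Bulk libraries held between 8549348 and 55382442 counts, and 25 of the 39 members passed the filter on low counts. Another 8 had between 1 and 173 counts in total, Hoxb8 the most. Hoxa11, Hoxa13, Hoxc11, Hoxc12, Hoxd11 and Hoxd12 had no count in any library. The markers of each sorted type were highest in its own libraries, with markers of other cells beside them. Telocyte markers summed to 6684 and 7814 CPM (counts scaled to a common library total, here with TMM factors) in telocytes and to at most 497.8 CPM elsewhere. Lymphatic markers summed to 4048 and 7753 CPM in lymphatic endothelium. Of that list Ccl21a had no count in any library. Plasma cell markers reached 173500 and 67390 CPM in the lymphatic libraries, against 4930 and 4912 CPM in blood endothelium. Leukocyte markers summed to 4670 and 3120 CPM in the lymphatic libraries and 2071 and 2949 in the blood libraries, against at most 742.3 in stroma. The lymphatic libraries also held blood endothelial markers at 2697 and 1875 CPM and mesothelial markers at 229.5 and 513.4 CPM. Blood endothelial markers reached 2842 and 980.5 CPM in the PDGFRAlo libraries, against 66.86 and 44.86 CPM in telocytes. In these bulk samples fewer cells of a type and less RNA per cell cannot be told apart.

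Summed over all members, Hox levels were 487 and 531 CPM in telocytes, 276 and 222 in PDGFRAlo cells, 478 and 440 in blood endothelium, and 162 and 189 in lymphatic endothelium. Per kilobase of exon, which allows genes to be compared, the leading members differed by population. In telocytes these were Hoxc8 (35.0 and 47.7 CPM per kb in the 2 libraries) and Hoxd8 (36.8 and 42.3). In PDGFRAlo cells Hoxc8 (13.5 and 22.5) and Hoxa5 (28.0 and 7.35) led, and the libraries of these 2 genes overlapped in each population. In blood endothelium Hoxa7 led (56.2 and 44.2 CPM per kb), followed by Hoxb7 (49.7 and 27.3). In lymphatic endothelium Hoxb7 (14.9 and 28.2) and Hoxa7 (19.3 and 19.9) led. Hoxb7 and Hoxa7 are paralogues, and their ranges overlapped in both endothelial populations. These orders depend on the length used. Per kilobase of unshared exon, Hoxb2 led in telocytes (64.1 and 71.6) and PDGFRAlo cells (30.5 and 34.4), and Hoxd3 (66.7) stood above Hoxa7 (57.6) in blood library 2.

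**Figure D1:**
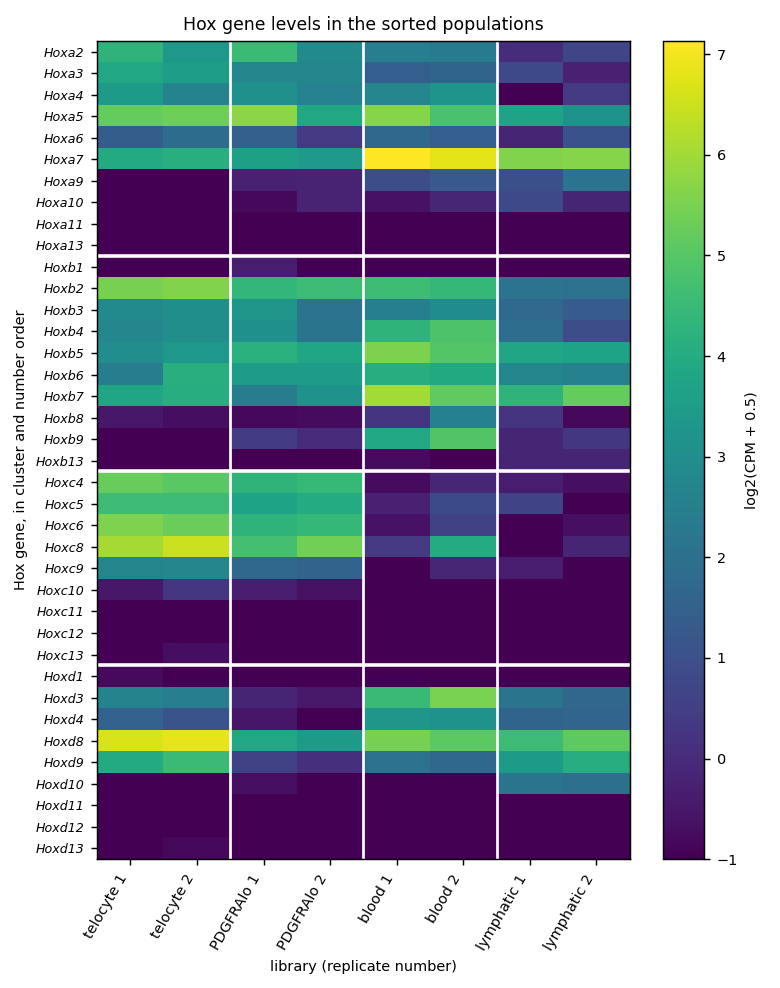
Rows are 38 of the Hox genes in cluster and number order, each column is 1 bulk library, and colour is log2(CPM + 0.5). Rows Hoxc4 to Hoxc9 are bright in the 4 PDGFRA libraries and dark in endothelium except Hoxc8 in blood library 2 (15.7 CPM). Hoxc10 (at most 0.727 CPM) and genes numbered 11 to 13 are dark throughout.

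Stroma and endothelium differed most in the HoxC cluster. Of the 25 members tested, 10 were higher in the 2 PDGFRA populations than in the 2 endothelial ones and 7 were lower, by edgeR's quasi-likelihood test at a Benjamini-Hochberg adjusted p under 0.05. Among all 14893 genes tested, 28.8% were called higher and 31.7% lower. The members' median log2 difference was 0.33, against -0.07 over all genes tested. The higher genes included Hoxa2, Hoxa3, Hoxa4, Hoxb2, Hoxc4, Hoxc5, Hoxc6, Hoxc8 and Hoxc9. The 7 lower genes were Hoxa7, Hoxa9, Hoxb5, Hoxb7, Hoxb9, Hoxd3 and Hoxd4. Within HoxA the numbers 2 to 4 were higher and 7 and 9 lower. Each side is the mean of 2 populations, so a call need not hold for every pair of populations. Libraries of the 2 sides overlapped for Hoxb2, Hoxb9 and Hoxd3, and for Hoxa4 and Hoxb5 as given below. Hoxb2 measured 20.6 and 23.2 CPM in PDGFRAlo cells and 23.8 and 21 in blood endothelium. Hoxd3 measured 5.77 and 5.09 CPM in telocytes, above the 3.92 and 2.69 of lymphatic endothelium.

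Hoxc6, a gene of mid-trunk identity, measured 46.5 and 38.3 CPM in telocytes, 19.2 and 20.7 in PDGFRAlo cells, 0.165 and 1.01 in blood endothelium and 0 and 0.134 in lymphatic endothelium. Its log2 difference between stroma and endothelium was 6.99 ± 0.63 (SE; edgeR adjusted p = 2.5e-05). Hoxc4 measured 37.1, 32.6, 19.1 and 21.3 CPM in the telocyte and PDGFRAlo libraries and at most 0.419 CPM in any endothelial library. Every PDGFRA library stood above every endothelial one for Hoxc4, Hoxc5, Hoxc6, Hoxc8 and Hoxc9. The share of all genes separated in this way was not counted. Hoxc5 ranged from 12.7 to 23.4 CPM in stroma and from 0 to 1.26 in endothelium. Hoxc9, the most posterior of the 5, ranged from 2.54 to 6.36 CPM in stroma and from 0 to 0.419 in endothelium.

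Hoxc8 measured 65.3 and 89.1 CPM in telocytes, 25.3 and 42.1 in PDGFRAlo cells, 0 and 0.403 in lymphatic endothelium, and 0.780 and 15.7 in the 2 blood libraries. The second blood library thus stood apart from the first. Its smooth muscle markers summed to 202.5 CPM, against 47.83 CPM in the first. The part of muscle RNA in this value was not tested.

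The anterior HoxA genes followed the stromal direction. Hoxa2 measured 19.2 and 9.63 CPM in telocytes, 22.7 and 6.98 in PDGFRAlo cells, 5.11 and 4.61 in blood endothelium and 0.540 and 1.14 in lymphatic endothelium. Hoxa3 measured 14.0 and 11.0, 6.28 and 6.15, 2.20 and 2.60, and 1.22 and 0.336 CPM in the same order. Hoxa4 overlapped between stroma and blood endothelium (5.64 to 10.4 against 6.00 and 8.67 CPM), and it measured 0 and 0.807 CPM in lymphatic endothelium.

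Of the genes higher on the endothelial side, those of HoxA and HoxB were numbered 5 to 9. Hoxd3 and Hoxd4 were also higher there, with log2 differences of -3.01 ± 0.38 and -3.46 ± 0.63 (SE). Their shared exons are described below. Hoxa7 measured 140 and 110 CPM in blood endothelium and 48.1 and 49.6 in lymphatic endothelium, against 9.80 to 16.8 CPM in the 4 stromal libraries. The groups did not overlap, and the log2 difference was -2.57 ± 0.21 (SE; edgeR adjusted p = 1.8e-05). Hoxb7 measured 64.2 and 35.3 CPM in blood endothelium, 19.2 and 36.4 in lymphatic endothelium, 13.5 and 16.2 in telocytes and 4.82 and 8.64 in PDGFRAlo cells. Hoxb5 overlapped between the groups, with 7.41 to 18 CPM in stroma against 12.6 to 45.3 in endothelium, and its call was lost without telocyte library 1 (edgeR adjusted p = 0.066). Hoxa9 had no count in telocytes, 0.330 and 0.370 CPM in PDGFRAlo cells, and 1.39 to 3.77 CPM in endothelium.

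Hoxa6, Hoxb3 and Hoxb6 were tested and called in none of the 3 bulk comparisons. Hoxb6 measured 4.99 and 16.6 CPM in telocytes, 10.8 and 10.7 in PDGFRAlo cells, 16.4 and 14.8 in blood and 6.08 and 5.51 in lymphatic endothelium. Hoxb3 ranged from 2.02 to 9.38 CPM over the 8 libraries.

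**Figure D2:**
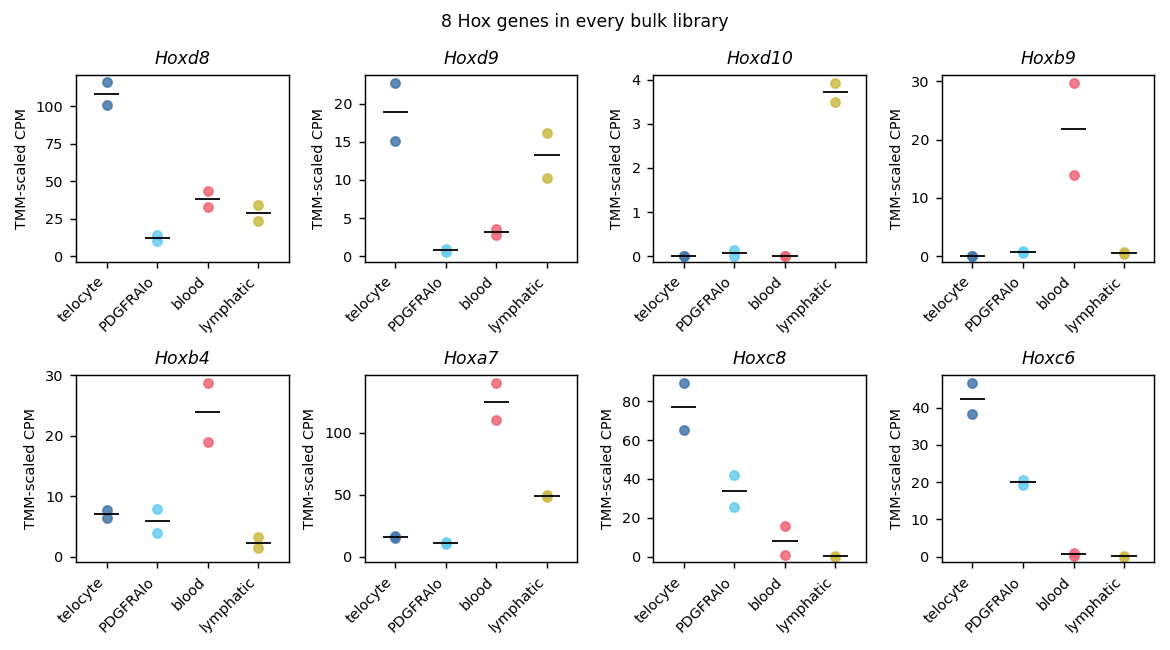
Points are TMM-scaled CPM of 8 Hox genes in the 2 libraries of each sorted population, bars are their means, and each vertical axis has its own linear scale that includes 0. Hoxd8 and Hoxd9 are highest in telocytes, Hoxd10 is present in lymphatic endothelium (3.92 and 3.50 CPM), and Hoxb9, Hoxb4 and Hoxa7 are highest in blood endothelium.

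Between telocytes and PDGFRAlo cells the HoxD cluster stood out. In this comparison 5 members were higher in telocytes, namely Hoxd8, Hoxd9, Hoxd3, Hoxd4 and Hoxb2, and 1, Hoxb9, was lower. Over all genes tested 2.77% were called higher and 12.1% lower, and the median log2 difference was 0.72 for members and -0.03 for all genes. Hoxd8, a gene of trunk identity, measured 101 and 116 CPM in telocytes and 14.3 and 10.3 in PDGFRAlo cells, a log2 difference of 3.15 ± 0.36 (SE; edgeR adjusted p = 0.00066). Hoxd9, its neighbour on the posterior side, measured 15.1 and 22.7 CPM in telocytes and 0.991 and 0.601 in PDGFRAlo cells, a log2 difference of 4.58 ± 0.55 (adjusted p = 0.00079 in edgeR). Neither gene's libraries overlapped, and both calls held in each of the 13 alternatives run. Hoxd10, the next gene along, was not part of this: it had no count in telocytes and 0.132 and 0 CPM in PDGFRAlo cells.

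Hoxd3 and Hoxd4 lie on the anterior side of Hoxd8. Hoxd3 measured 5.77 and 5.09 CPM in telocytes and 0.396 and 0.231 in PDGFRAlo cells. Hoxd4 measured 2.42 and 1.63 CPM against 0.198 and 0. Of the Hoxd3 exon length 79.3% is shared with the annotated genes Gm28230 and Hoxd3os1, and of the Hoxd4 exon length 45.1% with Gm28230. The library kit does not mark strand, so reads of Hoxd3 and of its antisense partner Hoxd3os1 cannot be told apart, and both values are uncertain. The Hoxd4 call was also lost in a fit of these 4 libraries alone (adjusted p = 0.063 in edgeR), without telocyte library 1 (0.058) and without PDGFRAlo library 2 (0.052).

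Hoxb2 measured 43.3 and 48.3 CPM in telocytes and 20.6 and 23.2 in PDGFRAlo cells, a log2 difference of 1.06 ± 0.30 (SE; edgeR adjusted p = 0.040). Its call was lost without either library of telocytes, PDGFRAlo cells or lymphatic endothelium (adjusted p from 0.051 to 0.29 in edgeR), and 58.5% of its exon length is shared with Hoxb3os. Hoxb9 had no count in telocytes and 0.859 and 0.508 CPM in PDGFRAlo cells, at least 6.96-fold higher when 3 counts over both telocyte libraries are taken as the floor. That call was lost without telocyte library 1 (edgeR adjusted p = 0.052) and without library 2 (0.074), and blood endothelial markers were also higher in the PDGFRAlo libraries, as given above. The part of endothelial RNA in the Hoxb9 value was not tested. Without the filter on low counts, and with the replicate number as a block, 4 members were called higher in telocytes, against 5. None of the 5 tested HoxC genes passed the test, with log2 differences from 0.72 ± 0.85 for Hoxc5 to 1.21 ± 1.16 for Hoxc9. Both telocyte libraries stood above both PDGFRAlo libraries for all 5. The share of all genes separated in this way was not counted, so no conclusion is drawn from it.

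Blood endothelium carried more of most members than lymphatic endothelium. Here 10 members were higher in blood endothelium (Hoxa2, Hoxa4, Hoxa5, Hoxa7, Hoxb2, Hoxb4, Hoxb5, Hoxb9, Hoxc8 and Hoxd3) and 2 were lower (Hoxd9 and Hoxd10). Over all genes tested 14.7% were higher and 8.32% lower, and the median log2 difference was 1.56 for the members and 0.12 for all genes. Hoxb9 measured 13.9 and 29.7 CPM in blood endothelium and 0.405 and 0.740 in lymphatic endothelium, a log2 difference of 5.17 ± 0.72 (SE; edgeR adjusted p = 0.0029). Hoxb4 measured 19.0 and 28.7 CPM against 3.24 and 1.41, a log2 difference of 3.40 ± 0.59 (edgeR adjusted p = 0.0048). Hoxb2 measured 23.8 and 21 CPM against 3.78 and 3.63. Hoxa5, which is known for its part in lung and gut mesenchyme, measured 50.5 and 27.5 CPM in blood endothelium, 12.7 and 8.34 in lymphatic endothelium, 36.8 and 40.1 in telocytes and 52.6 and 13.8 in PDGFRAlo cells.

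Hoxd10 ran the other way. It had 3.92 and 3.50 CPM in lymphatic endothelium and no count in blood endothelium, at least 81.7-fold higher with 3 counts over both blood libraries as the floor. Hoxd9 measured 10.3 and 16.1 CPM in lymphatic and 3.59 and 2.77 in blood endothelium, a log2 difference of -2.05 ± 0.48 (SE; edgeR adjusted p = 0.015). Hoxd8 overlapped between them, with 43.6 and 33.1 CPM in blood and 23.2 and 34.3 in lymphatic endothelium. Hoxd3 measured 22 and 44.8 CPM in blood endothelium against 3.92 and 2.69, while Hoxd3os1, the antisense gene that shares its exons, measured 18.9 and 107 CPM in the 2 blood libraries and 3.38 and 2.35 in the lymphatic ones.

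These endothelial calls rest on few libraries. Without lymphatic library 1 the counts were 6 higher and 1 lower, and without lymphatic library 2 they were 5 higher and none lower. Without blood library 2 they were 7 and 1, and Hoxc8 was no longer called (adjusted p = 0.23 in edgeR). Without blood library 1 they were 8 and 2. DESeq2 did not call Hoxd10 (adjusted p = 0.11), and Hoxa5 lost its call in 7 of 13 alternatives. Hoxa4, Hoxb2, Hoxb4, Hoxb9 and Hoxd3 kept their calls in all 13 alternatives. Plasma cell, leukocyte and mesothelial markers were all higher in the lymphatic libraries, at the values given above, and their part in the lower Hox levels there was not tested.

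**Figure D3:**
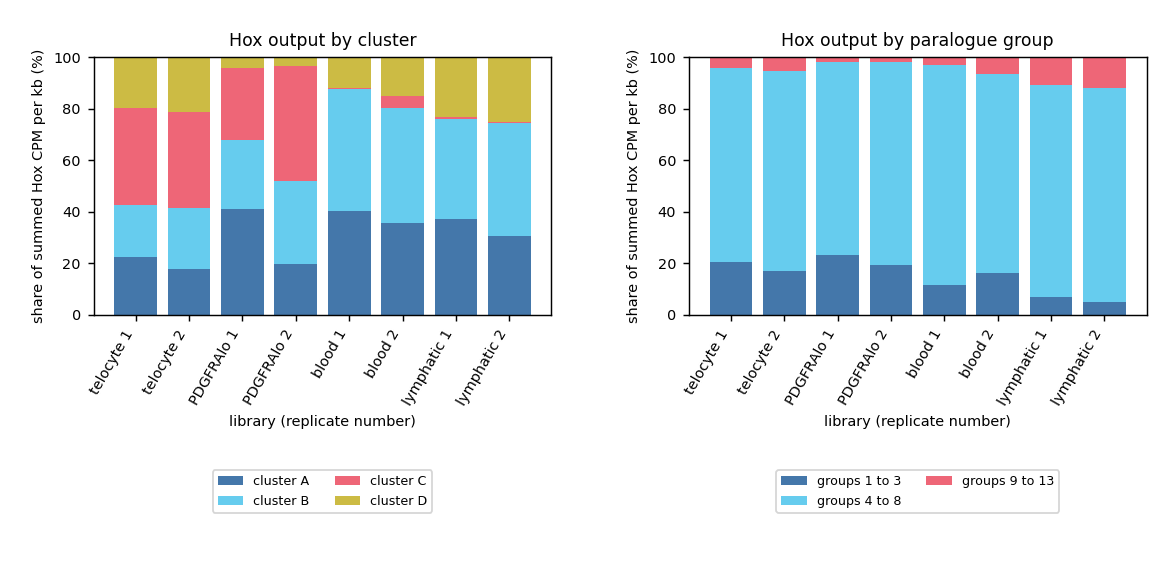
Bars are the share of summed Hox CPM per kb in each bulk library, divided by cluster (left) or by paralogue number (right), from 0 to 100%. HoxC takes 27.8 to 44.6% in stroma and at most 4.84% in endothelium, and numbers 4 to 8 take between 75.1 and 85.2% in every library.

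Divided by cluster, HoxC supplied 37.8 and 37.1% of the per-kilobase Hox level in telocytes and 27.8 and 44.6% in PDGFRAlo cells. In endothelium it supplied 0.286 and 4.84% in the blood libraries and 0.769 and 0.373% in the lymphatic ones. HoxD supplied 19.7 and 21.4% in telocytes but 4.25 and 3.63% in PDGFRAlo cells. It supplied 11.9 and 15.0% in blood and 23.1 and 25.2% in lymphatic endothelium. Per kilobase, HoxB was the largest share in both endothelial populations (47.4, 44.8, 39.1 and 43.9%). Without division by length HoxA was larger than HoxB in blood library 1 (43.8 against 39.5%) and in both lymphatic libraries (40.9 against 30.9% and 35 against 33.3%). In lymphatic endothelial-like single cells HoxA held 42.4 and 40.7% of Hox UMIs and HoxB 23.8 and 30.9%. Genes numbered 9 to 13 were 10.8 and 11.9% of the level in lymphatic endothelium and at most 6.77% in any other library. With each gene's counts divided by its unshared exon length alone, HoxD in blood endothelium rose to 18.6 and 29.1%, and the order of blood and lymphatic endothelium for HoxD was no longer clear (25 and 25.6% in the latter).

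Single cells allowed the same genes to be read in classes that were not sorted in bulk. After filtering and removal of predicted doublets, 3843 cells of the sorted library and 6123 and 5929 cells of the whole-mesenchyme libraries remained. Cells were gated by 8 marker genes per class, none of them a Hox gene, and UMIs (unique transcript molecules) were summed per class and library. In whole mesenchyme this gave 2178 fibroblast-like, 167 telocyte-like, 480 smooth muscle-like, 56 pericyte-like, 58 glia-like, 300 blood endothelial-like and 132 lymphatic endothelial-like cells, besides 6271 leukocyte-like and 955 plasma cell-like cells. The 2 whole-mesenchyme libraries shared 7 cell barcodes of 6226 and 6040. They hardly differed beyond counting error (common biological coefficient of variation 0.0319). Of the 39 members, 31 had a UMI in these classes and 19 passed the filter for testing.

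Total Hox levels, as CPM of the class's own UMIs without TMM factors, were 607 and 666 in telocyte-like cells, 451 and 448 in fibroblast-like cells and 621 and 649 in smooth muscle-like cells of libraries 1 and 2. They were 680 and 498 in pericyte-like, 361 and 250 in glia-like, 415 and 448 in blood endothelial-like and 531 and 526 in lymphatic endothelial-like cells. Plasma cell-like cells had 2.37 and 2.57, and leukocyte-like cells 26.3 and 23.6. Droplets with under 100 UMIs, which hold free RNA, had 147 and 127 CPM. The share of cells with at least 1 Hox UMI was 94.4 and 96.1% of telocyte-like and 92.5 and 92.3% of fibroblast-like cells, at median depths of 7400 to 7850 UMIs. It was 74.3 and 82.6% of glia-like cells and 4.51 and 4.71% of plasma cell-like cells, the latter at median depths of 21700 and 21300. Thinned to 3000 UMIs a cell, the shares were 86.2 and 76.3% (telocyte-like), 70.9 and 72.5% (fibroblast-like), 50 and 70.0% (glia-like) and 0.207 and 0.860% (plasma cell-like). Thinning left out 4, 74, 8 and 6 cells of these classes.

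**Figure D4:**
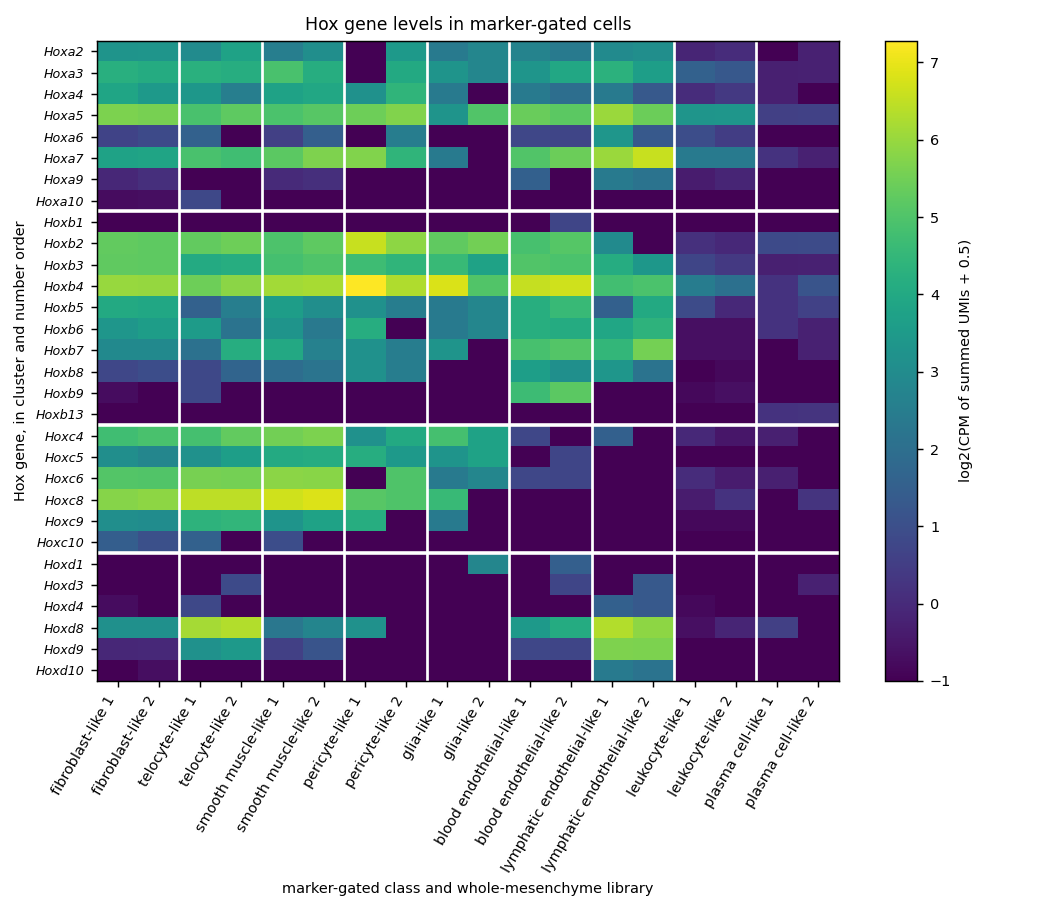
Rows are 30 of the Hox genes with at least 1 UMI in the gated classes, columns are classes in whole-mesenchyme libraries 1 and 2, and colour is log2(CPM + 0.5) of summed UMIs. Rows Hoxc4 to Hoxc9 are bright from fibroblast-like to smooth muscle-like columns and dark in both endothelial classes. Hoxb9 is brightest in blood endothelial-like cells (25.1 and 36.2 CPM).

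Telocyte-like cells again had more Hoxd8 and Hoxd9 than fibroblast-like cells. Gene levels below are CPM of summed UMIs with TMM factors. Of the 19 tested members 5 were higher (Hoxd8, Hoxd9, Hoxa7, Hoxc8 and Hoxc9) and 3 lower (Hoxa5, Hoxb3 and Hoxb5), with library as a block in edgeR. Over the 11229 genes tested, 11.5% were higher and 14.9% lower. Hoxd8 had 58 and 60 UMIs in telocyte-like cells (71.7 and 79.4 CPM) and 76 and 71 in fibroblast-like cells (8.35 and 8.43 CPM), a log2 difference of 3.16 ± 0.25 (SE; edgeR adjusted p = 2.6e-15). Hoxd9 had 8.66 and 10.6 CPM against 0.439 and 0.475, a log2 difference of 4.29 ± 0.77 (edgeR adjusted p = 1.4e-05). Hoxb5 went the other way, with 2.47 and 5.30 CPM in telocyte-like and 15.7 and 14.8 in fibroblast-like cells (log2 difference -1.98 ± 0.56). The Hoxa5 call (29.7 and 37.1 CPM against 49.3 and 47.2) was lost with doublets kept, with other size factors and with the stricter gate (edgeR adjusted p = 0.056 to 0.23). Hoxc9 measured 19.8 and 21.2 CPM against 8.02 and 7.72, and Hoxc8 86.6 and 87.4 against 54.7 and 58.4. Hoxd8 and Hoxd9 were called in both bulk and single cells, 2 of the 4 bulk calls (50%) and 2 of the 8 single-cell calls (25%) among the 19 members tested in both. Of these 19, 12 had the same sign in both. The bulk calls of Hoxb2 and Hoxb9 were not matched in the whole-mesenchyme fit (edgeR adjusted p = 0.76 and 0.435). Hoxa5 and Hoxb3, called lower in single cells, had bulk log2 differences of 0.21 and 0.17, not called.

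The sorted library, a single library with no test, gave the same order for Hoxd8, Hoxd9, Hoxc8 and Hoxb5, but not for every member. Its CPM are without TMM factors. Hoxd8 was 47.4 CPM (95% Poisson interval 39.7 to 56.2) in its 547 telocyte-like cells and 4.82 CPM (3.69 to 6.17) in its 2690 fibroblast-like cells. Hoxd9 was 22.8 CPM (17.6 to 29.2) against 0.621 (0.268 to 1.22), and Hoxc8 132 CPM (119 to 147) against 54.8 (50.9 to 59.0). Hoxb5 was 6.78 CPM (4.08 to 10.6) against 27.5 (24.7 to 30.5). Hoxb2, not called between these classes in whole mesenchyme, was 107 CPM (94.9 to 119) against 52.7 (48.8 to 56.8). Hoxd3 had no UMI in either class, with upper limits of 1.32 CPM in telocyte-like and 0.287 in fibroblast-like cells. Its bulk values were 5.77 and 5.09 CPM in telocytes. Hoxb9 also had no UMI and the same limits, where bulk PDGFRAlo cells had 0.859 and 0.508 CPM. The intervals cover counting error only. Hoxd4 had 38 UMIs in telocyte-like and 7 in fibroblast-like cells here, yet at most 1 UMI per class in either whole-mesenchyme library. The whole-mesenchyme matrices list 2 features named Hoxd4, of which the one used in the sorted library had no UMI, so these 2 data sets are not comparable for Hoxd4. Over all members, free RNA in the sorted library held 475 CPM, against 912 in telocyte-like and 509 in fibroblast-like cells.

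Smooth muscle-like cells had more of 4 HoxC genes than fibroblast-like cells. Against fibroblast-like cells 5 members were higher (Hoxa7, Hoxc4, Hoxc5, Hoxc6 and Hoxc8) and 1, Hoxa5, was lower, where 20.5% of all genes tested were higher and 23.1% lower. Hoxc8 measured 102 and 115 CPM in smooth muscle-like cells and 54.7 and 58.4 in fibroblast-like cells, a log2 difference of 0.94 ± 0.11 (SE; edgeR adjusted p = 4.9e-10). Hoxa7 measured 36.5 and 50.9 CPM against 13.2 and 13.7, a log2 difference of 1.69 ± 0.17 (edgeR adjusted p = 9.2e-12). Hoxc9, at 9.25 and 13.3 CPM against 8.02 and 7.72, did not pass (log2 difference 0.50 ± 0.32, edgeR adjusted p = 0.23). No test against telocyte-like cells was made. HoxC made up 44.2 and 44.9% of Hox UMIs in smooth muscle-like cells, 31.3 and 32.5% in fibroblast-like and 39.1 and 37.6% in telocyte-like cells. HoxD made up 16.5 and 16.7% in telocyte-like cells, 2.11 and 2.16% in fibroblast-like and 1.02 and 1.46% in smooth muscle-like cells.

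Pericyte-like and glia-like cells were few. No member was called in pericyte-like cells by edgeR (3 had an unadjusted p under 0.05), where 7.81% of all genes were higher and 10.7% lower. Their leading gene was Hoxb4, at 155 and 78.5 CPM from 18 and 15 UMIs. In glia-like cells no member was higher and 3 were lower, namely Hoxa5, Hoxc6 and Hoxc8, against 10.4% higher and 13% lower over all genes. Hoxc8 had 5 UMIs in glia-like cells of library 1 (23.4 CPM) and 0 in library 2, against 54.7 and 58.4 CPM in fibroblast-like cells. Hoxb4 (24 and 5 UMIs) and Hoxb2 (8 and 7 UMIs) were the members with the most UMIs in glia-like cells. The Hoxa5 call in glia-like cells was lost with another scaling (edgeR adjusted p = 0.054), and with the stricter gate Hoxa7 was called lower as well (0.045).

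In endothelial-like cells the HoxC cluster had almost no UMIs. Against fibroblast-like cells, 4 members were higher (Hoxa7, Hoxb4, Hoxb7 and Hoxb9) and 6 lower in blood endothelial-like cells, where 24.9% of all genes were higher and 27.4% lower. In lymphatic endothelial-like cells 4 were higher (Hoxa7, Hoxb7, Hoxd8 and Hoxd9) and 9 lower, where 17.5% of all genes were higher and 22.9% lower. Hoxc4, Hoxc5, Hoxc6, Hoxc8 and Hoxc9 were among the lower genes in both. With the stricter gate the lymphatic calls of Hoxb3, Hoxb7, Hoxc5 and Hoxc9 were lost (edgeR adjusted p = 0.059 to 0.12). Hoxc8 had no UMI in either endothelial class and 990 UMIs in fibroblast-like cells. With 3 UMIs over both libraries as the floor, it was at least 31.9-fold higher in fibroblast-like than in blood endothelial-like cells and at least 17.2-fold higher than in lymphatic endothelial-like cells. The absence of Hoxc8 UMIs here stands beside the 15.7 CPM of bulk blood library 2.

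Within endothelium, blood endothelial-like and lymphatic endothelial-like cells were compared directly, a comparison added after the data were seen. Here 4 members were higher in the blood class (Hoxb2, Hoxb3, Hoxb4 and Hoxb9) and 3 lower (Hoxa7, Hoxd8 and Hoxd9), where 15.3% of all genes were higher and 10.9% lower. The Hoxb3 call was lost with the stricter gate (edgeR adjusted p = 0.18). Hoxb9 had 21 and 31 UMIs in blood endothelial-like cells and none in lymphatic endothelial-like cells, at least 9.36-fold higher with 3 UMIs as the floor. Hoxd9 had 1 and 1 UMIs in the blood class and 21 and 25 in the lymphatic class (50.7 and 50 CPM), a log2 difference of -5.37 ± 0.75 (SE; edgeR adjusted p = 1e-07). Hoxd8 measured 10.7 and 16.4 CPM in the blood class and 79.7 and 58 in the lymphatic class. Hoxd10 was too sparse to test: 2 and 2 UMIs in lymphatic endothelial-like cells, none in the blood class, and 1 in all fibroblast-like cells.

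**Figure D5:**
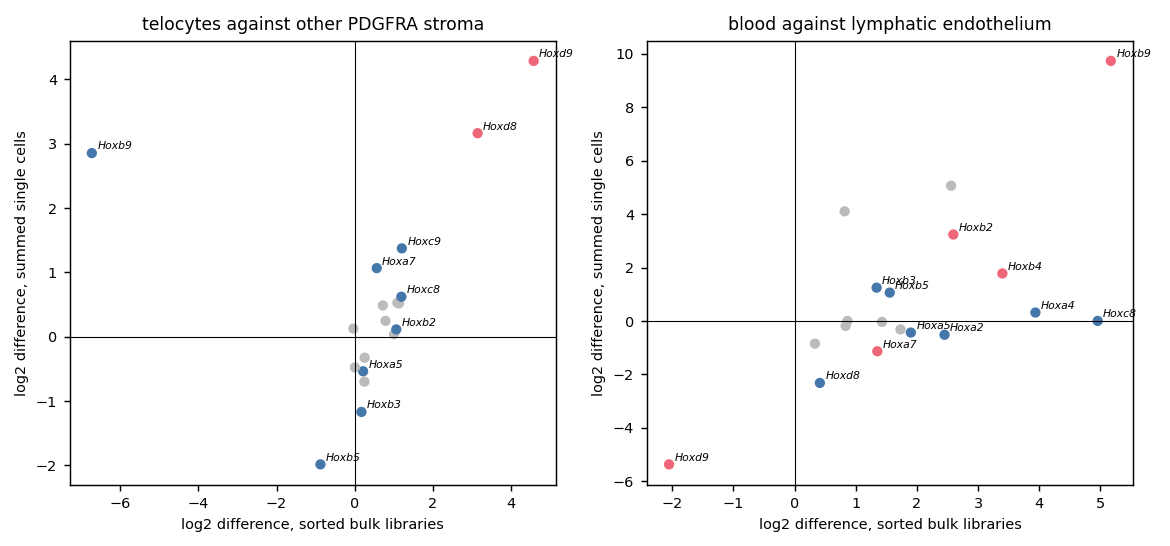
Each point is 1 of 19 Hox genes, with its log2 difference in sorted bulk libraries on the horizontal axis and in summed single cells on the vertical axis; red genes are called in both, blue in 1 and grey in neither. Hoxd8 and Hoxd9 lie at the upper right in the telocyte panel, and in the endothelial panel Hoxa7 lies at the lower right.

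Between the endothelia, 11 of the 19 members tested in both assays had the same sign, and Hoxa7 was called in opposite directions. In bulk it was higher in blood than in lymphatic endothelium (log2 difference 1.35 ± 0.29), and in single cells it was lower (-1.13 ± 0.27, SE; edgeR adjusted p = 0.00083), with 32.2 and 42.1 CPM in the blood class and 65.2 and 96.0 in the lymphatic class. The total over members was lower in lymphatic endothelium in bulk. In single cells it was higher in the lymphatic class, but those totals were without TMM factors, unlike the bulk ones. The factors were 1.29 and 1.3 in the lymphatic class and 1.12 and 1.1 in the blood class. They would narrow the single-cell difference, so the order of the totals on the bulk scale was not settled. The bulk call of Hoxa7 was lost without either lymphatic library (edgeR adjusted p = 0.054 and 0.062). Hoxd8 was at 0.41 ± 0.33 in bulk, not called, and at -2.32 ± 0.39 in single cells. Plasma cell markers were high in the bulk lymphatic libraries, and plasma cell-like cells had at most 2.57 CPM of Hox genes. Their part in the bulk difference was not tested. Of the 10 bulk calls among the members tested in both, 5 (50%) were also called in single cells, 4 with the same sign (Hoxb2, Hoxb4, Hoxb9 and Hoxd9). Hoxd3, at 22 and 44.8 CPM in bulk blood endothelium, had at most 1 UMI per class and library in whole mesenchyme.

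Leukocyte-like cells had a Hox make-up that differed from that of free RNA. Their 840 Hox UMIs over both libraries included 287 of Hoxa5 (34.2%), 141 of Hoxa7 (16.8%), 131 of Hoxb4 (15.6%) and 35 of Hoxa6 (4.17%). In free RNA the shares were 8.40, 4.26, 13.2 and 0.258% of 774 Hox UMIs. Hoxb2 and Hoxc8 went the other way, at 1.90 and 1.67% of leukocyte-like Hox UMIs and 8.14 and 8.40% in free RNA. The total of 26.3 and 23.6 CPM was below that of free RNA, while the shares of these genes differed, least for Hoxb4. In fibroblast-like cells Hoxb4 held 14.9% of Hox UMIs. A leukocyte-like cell had a Hox UMI in 9.41 and 9.08% of cases at a median depth of 3700 UMIs, against 4.51 and 4.71% of plasma cell-like cells.

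Hox proteins bind DNA together with the TALE homeodomain proteins of the Pbx, Meis and Pknox families. Of 9 such genes, 7 were higher in stroma than in endothelium and 1, Meis2, was lower (all genes 28.8 and 31.7%), with a median log2 difference of 1.14 against -0.07 over all genes. Pknox2 measured 46.9 and 19.4 CPM in telocytes, 23.6 and 22.7 in PDGFRAlo cells, and at most 0.202 in any endothelial library, and the stromal populations overlapped. Meis1 averaged 37.2 CPM in telocytes, 119 in PDGFRAlo cells, 7.13 in blood and 3.47 in lymphatic endothelium, and Meis3 56.4, 37.6, 3.68 and 13.8 CPM in the same order. Between telocytes and PDGFRAlo cells none was higher and 3 were lower by edgeR (all genes 2.77 and 12.1%). Among the lower were Meis1 (37.2 against 119 CPM) and Pbx3 (11.6 against 40.4 CPM). The list's median log2 difference was 0.32, against -0.03 over all genes. In single cells Meis1 and Pbx3 were also lower in telocyte-like than in fibroblast-like cells, with log2 differences of -2.15 ± 0.20 and -1.05 ± 0.24 (SE). Between the endothelia Meis3 was lower in blood (log2 difference -1.91 ± 0.29) and Pbx2 higher (1.86 ± 0.43). In single cells neither passed: Meis3 was at 4.12 ± 4.74, the opposite sign, and Pbx2 at 0.26 ± 0.38 (edgeR adjusted p = 0.61 and 0.70).

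Polycomb and trithorax proteins keep Hox genes off or on, and Cdx factors switch them on in the embryo. Of 22 tested genes of this kind, 8 were higher and 4 lower in stroma than in endothelium (all genes 28.8 and 31.7%). In blood against lymphatic endothelium 4 were higher and none lower (all genes 14.7 and 8.32%). In telocytes against PDGFRAlo cells 1, Bmi1 (45 against 17.7 CPM), was higher and none lower (all genes 2.77 and 12.1%). The list's median log2 differences were 0.54, 0.03 and 0.11, against -0.07, 0.12 and -0.03 over all genes. The smallest p-values between stroma and endothelium belonged to Phc1 (higher, log2 difference 1.92 ± 0.33), Kdm6b (lower, -1.71 ± 0.29) and Cbx2 (higher, 2.82 ± 0.50). Kmt2a, a trithorax methyltransferase, averaged 78.5 CPM in blood and 27.9 in lymphatic endothelium.

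Retinoic acid is an inducer of anterior Hox genes. Of 11 tested genes, 5 were higher and 3 lower in stroma (all genes 28.8 and 31.7%), with a median log2 difference of 0.52 against -0.07 over all genes. Between blood and lymphatic endothelium 3 were higher, with Rarg (2.82 ± 0.42) and Rxra (2.29 ± 0.38) among them, and 1, Aldh1a2, was lower (all genes 14.7 and 8.32%). The 3 synthesis enzymes led: Aldh1a1 had a mean of 1620 CPM in telocytes, 260 in PDGFRAlo cells and 2.45 and 3.94 in blood and lymphatic endothelium, Aldh1a2 averaged 502, 221, 2.04 and 7.75, and Aldh1a3 675, 703, 2.47 and 2.02. The 2 PDGFRAlo libraries differed for Aldh1a3, at 979 and 427 CPM. Cyp26b1, which breaks retinoic acid down, measured 0.356 and 5.87 CPM in telocytes, 11.9 and 4.62 in PDGFRAlo cells, 311 and 273 in blood and 56.2 and 49.6 in lymphatic endothelium. Between telocytes and PDGFRAlo cells Aldh1a1 was higher (log2 difference 2.64 ± 0.46) and Rarg, a receptor, lower (-1.78 ± 0.40).

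Non-coding and flanking genes of the clusters were compared too. Of 18 tested, 4 were higher in blood than in lymphatic endothelium and none lower (all genes 14.7 and 8.32%). They were Hotairm1 (44 and 63.9 against 3.78 and 1.68 CPM), Hoxb5os (4 and 10.3 against 0 and 0.0672), Hoxd3os1 and Hoxaas2 (1.61 and 3.48 against 0 and 0.202). Beside the HoxD cluster, the flanking gene Mtx2 was higher in telocytes than in PDGFRAlo cells (79.5 against 29.2 CPM). Lnpk, on the other flank of HoxD, averaged 48.8, 23.7, 15.4 and 17.6 CPM in telocytes, PDGFRAlo cells, blood and lymphatic endothelium, and was called between stroma and endothelium. Between stroma and endothelium 6 of the 18 were higher and 5 lower, near the shares over all genes (28.8 and 31.7%), with a median log2 difference of -0.15.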

How the data were processed

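Gene counts of the 8 bulk libraries were deposited by the authors as raw counts, with reads mapped with STAR to mm10 per the submitters' processing notes, and libraries made with the SMART-Seq v4 kit per the labels' protocols. No source used here names the counting tool or annotation. The 3 single-cell matrices hold UMI counts that the authors deposited from Cell Ranger 2.1.1 (sorted library) or 3.0.2 (whole mesenchyme), per the submitters' processing notes.

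Here 26 names that a spreadsheet had turned into dates (0.131 to 0.523% of counts) were left out. Bulk counts of all 8 libraries were fitted in edgeR 4.0.16 (R 4.3.3; TMM scaling, filterByExpr, quasi-likelihood test, Benjamini-Hochberg over 14893 genes, 4 residual degrees of freedom). CPM are TMM-scaled, and SE is the log2 difference over the square root of F. Cells with at least 500 genes and under 10% mitochondrial UMIs were kept, and cells with a Scrublet doublet score over 0.25, a limit set after the scores were seen, were removed with Scanpy 1.11.5 (47, 103 and 111 cells). A class needed 3 of its 8 markers and a lead of 2 over every other list. Sums per class with at least 20 cells in each whole-mesenchyme library were tested in edgeR, blocking on library (11229 genes, 8 residual degrees of freedom). Intervals are exact, at 95%. Exon lengths and positions are from GENCODE M21 (GRCm38, the same assembly as mm10). Both fits were also run on simulated counts that gave all groups a common mean profile apart from set changes. The simulated spread between single-cell sums was larger than in these data, and no result here rests on these runs.

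Members named with values are those with a mean of at least 5 CPM in a population or called in bulk, and, in single cells, those with at least 20 UMIs; up to 3 genes of other lists are named per comparison by smallest p. Hoxd10, Hoxd3, Hoxd4, Hoxb13 and Hoxa6 in single cells, the printed sequences, Cyp26b1, Hoxaas2, Lnpk and Meis2 were chosen after their values were seen. The members and lists were chosen with earlier results of these data known. Replicate numbers in the labels were checked for pairing and do not pair the bulk libraries.
Alternatives were DESeq2 1.42.0 (bulk), other size factors, no filter on low counts, a replicate block or none, the compared libraries alone, each library left out (bulk) or taken singly (single cells), doublets kept, a stricter gate (4 markers, lead of 3) and unshared exon length. The direct comparison of the 2 endothelial classes was added after the data were seen.
Values of some genes are not reported here and are not drawn.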

Additional observations from a re-analysis of the deposited data

How the results depend on the processing

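With 2 libraries per bulk population, single libraries move many calls. Of 35 calls of members over the 3 bulk comparisons, 23 held in every alternative run; in 437 comparisons of a called member with an alternative, 47 lost the call and none changed direction. Members called lower in telocytes than in PDGFRAlo cells numbered 2 with DESeq2 and 2 without the filter on low counts, against 1, and 0 when only these 4 libraries were fitted. Members called lower in blood than in lymphatic endothelium numbered 1 with DESeq2, against 2. Leaving out 1 library at a time gave 3 to 5 members higher and 0 to 1 lower in telocytes, 5 to 10 higher and 0 to 2 lower in blood endothelium, and 9 to 13 higher and 6 to 8 lower in stroma. With the replicate number as a block, although the numbers do not pair the libraries (correlations of same-numbered deviations -0.103 to 0.195), the counts were 4 higher and 1 lower, 10 and 2, and 9 and 7. In single cells 40 of 47 member calls held in every alternative fit, and 9 of 235 comparisons of a call with a fit lost it. The 2 libraries taken singly, which give no test, kept every direction. Members lower in smooth muscle-like cells numbered 2 with doublets kept and 3 without the filter, against 1. The stricter gate left too few pericyte-like cells for a value. Without the block for library the counts of members were as in the main fit.

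With counts divided by unshared exon length, mean shares were 38.8% (HoxB), 3.50% (HoxD), 33.9% (numbers 1 to 3), 64.8% (4 to 8) and 1.36% (9 to 13) in PDGFRAlo cells. In blood endothelium they were 33.2% (HoxA), 41.1% (HoxB), 23.9% (HoxD), 31.0% (numbers 1 to 3) and 65.4% (4 to 8). In lymphatic endothelium they were 13.6%, 76.8% and 9.73% for the 3 number ranges. In telocytes they were 32.2% (HoxB), 30.5% (HoxC), 19.1% (HoxD), 32.7% (numbers 1 to 3), 63.5% (4 to 8) and 3.85% (9 to 13).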

Other observations

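Cells that met no marker gate also held Hox UMIs, at 919 CPM in 594 cells of the sorted library and 63.8 and 47.5 CPM in 738 and 715 cells of whole mesenchyme. Hoxb13, the most posterior gene of its cluster, had 2 and 2 UMIs in plasma cell-like cells and none in any other class of whole mesenchyme. The plasma cell-like class held 10543713 and 10120389 UMIs in all, and the lymphatic endothelial-like class 324009 and 387871. Of the gated classes only leukocyte-like cells held more, at 16719177 and 16960213. In the smaller classes the absence of a Hoxb13 UMI therefore does not show a lower level. In bulk, Hoxb13 had 3 and 6 counts in the lymphatic libraries, which carried the most plasma cell marker RNA, 4 and 0 in the blood libraries and none in stroma. The part of plasma cells in these counts was not tested.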
